A study of Mus musculus with 8 samples.

Results

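The 56 genes described here act in DNA repair, and they were followed in mouse embryonic stem cells (ESCs) depleted of 3 members of the HIRA complex. They were taken by name from a list sorted by pathway, which was drawn up with earlier results of these data known. The list holds 17 recombination genes, 8 Fanconi anemia genes, 5 mismatch repair genes, 12 genes of base excision and single-strand break repair, 10 nucleotide excision repair genes and 4 end joining genes. All 56 symbols were found among the 55418 genes of the count tables. RNA-seq was done on 8 libraries, 2 from control cells and 2 each from cells with shRNA depletion of Hira, Ubn1 or Ubn2. All cells were of the E14 line, labelled strain 12910la, grown on gelatin with 15% FBS and 10 ng/ml LIF. The labels give 1000 ng of pSuper puro plasmid per transfection and 1 µg/ml puromycin for 3 days, starting 24 h after transfection. Control cells carry the genotype label wild type, and by the study's methods its control shRNA was directed against luciferase. As a model, each group is a transiently transfected and drug-selected pool of a single cell line, and each depletion leaves part of the transcript in place.

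HIRA, UBN1 and UBN2 belong to a histone chaperone complex that places the variant histone H3.3 into chromatin outside DNA replication. DNA repair is divided by the kind of lesion. Recombination copies a broken chromosome end from its sister, end joining ligates the ends directly, and the Fanconi anemia pathway unhooks strands that are crosslinked. Mismatch repair corrects replication errors, base excision repair replaces single damaged bases, and nucleotide excision repair cuts out bulky damage such as that made by ultraviolet light. Pluripotent stem cells divide fast, spend much of their cycle in S phase and are known for high levels of many recombination and mismatch repair proteins.

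Total counts on genes lay between 19710040 and 32706053 per library. The targeted genes were lowest in the libraries named for them. Hira was at 89.4 and 97.6 CPM (counts scaled to a common library size) in the control libraries and at 10.0 and 10.4 CPM after its depletion. Ubn1 was at 53.02 and 44.1 CPM in control and at 23.8 and 23.8 CPM after its depletion. Ubn2 went from 50.1 and 51.7 to 30.1 and 24.6 CPM. The depletions were thus of unequal strength, with fitted falls of 9.29-fold for Hira, 2.04-fold for Ubn1 and 1.86-fold for Ubn2. The part of this strength in differences between the depletions was not tested. The 11 ESC markers, among them Pou5f1, Sox2 and Nanog, summed to between 5169 and 6047 CPM in every library. They were lowest in the Hira-depleted libraries, at 5169 and 5448 CPM against 5832 and 6047 CPM in control. There 4 of the 11 were lower and 1 higher (36.4% and 9.09%, against 17.3% and 17.6% of all genes tested). After Ubn2 depletion 3 were lower and 4 higher (27.3% and 36.4%, against 19.1% and 20.0%). The Ubn2-depleted libraries stood apart in muscle markers, which summed to 378 and 246 CPM there and to between 37.4 and 67.9 CPM in the other 6 libraries. The Hira-depleted libraries were lowest, at 37.4 and 43.4 CPM against 57.7 and 64.2 CPM in control. There 3 of the 7 tested were lower and 0 higher (42.9% lower, against 17.3% of all genes tested). Both Hira-depleted libraries stood apart in neural markers, at 622 and 627 CPM against 445 and 447 CPM in control, with 5 of the 8 tested higher, while the Ubn2-depleted libraries were at 298 and 318 CPM, with 4 of 8 lower and 1 higher. Compared directly, 6 of 8 neural markers were higher after Hira than after Ubn2 depletion. Endoderm markers summed to between 271 and 330 CPM in all libraries. The Hira-depleted libraries were highest, at 330 and 321 CPM against 271 and 274 CPM in control. There 3 of the 7 tested were higher and 0 lower (42.9% higher, against 17.6% of all genes tested). Fibroblast markers summed to between 40.2 and 58.5 CPM, but after Ubn2 depletion 3 of the 8 tested rose and 3 fell (37.5% each, against 20.0% and 19.1%). In bulk RNA, fewer cells of one type and less RNA per cell cannot be told apart.

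CPM are counts divided by library size after TMM scaling. A log2 fold change of -1 is a halving of CPM. Each change is given with its standard error (SE) and with the edgeR adjusted p, which is the p-value of edgeR's quasi-likelihood test after Benjamini-Hochberg adjustment over all genes tested. A gene is said to have risen or fallen where that value is under 0.05, and it is said to be called where the change was also over 1.5-fold, the thresholds used in the study. No source states that the 2 libraries of a group came from separate cultures, so p-values measure the spread between these libraries, which may be technical. All 56 genes passed the filter on low counts in each comparison, with a lowest count of 53, for Parp3. Gene positions are those of the GENCODE gene models on GRCm38, the build of the deposited counts. Of the 56 genes, 28 share exon bases with another annotated gene, 11 of them over 10% of their exon bases, and no source states whether reads were counted by strand.

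In control cells the repair genes covered a wide range of levels. Per kilobase of annotated exon, Msh6, which recognizes base mismatches, had the highest control mean at 196 CPM. Ddb1, the adaptor of the CUL4 ubiquitin ligase that finds ultraviolet damage, followed at 176 CPM per kilobase and Parp1, the main sensor of strand breaks, at 152. Apex1, the nuclease that cuts at sites that have lost their base, was at 93.3 and Xrcc5, which encodes the Ku80 subunit of the end joining machinery, at 52.9 CPM per kilobase. The lowest means on this scale were those of Parp3 at 0.765, Xrcc4 at 1.19, Fancc at 1.68 and Ercc4 at 2.23 CPM per kilobase. The annotated exons of a gene together can be longer than any of its transcripts, so these levels are approximate. The median control level of the 56 genes was 37.7 CPM, against 13.0 CPM over the 19035 genes tested after Hira depletion.

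**Figure D1:**
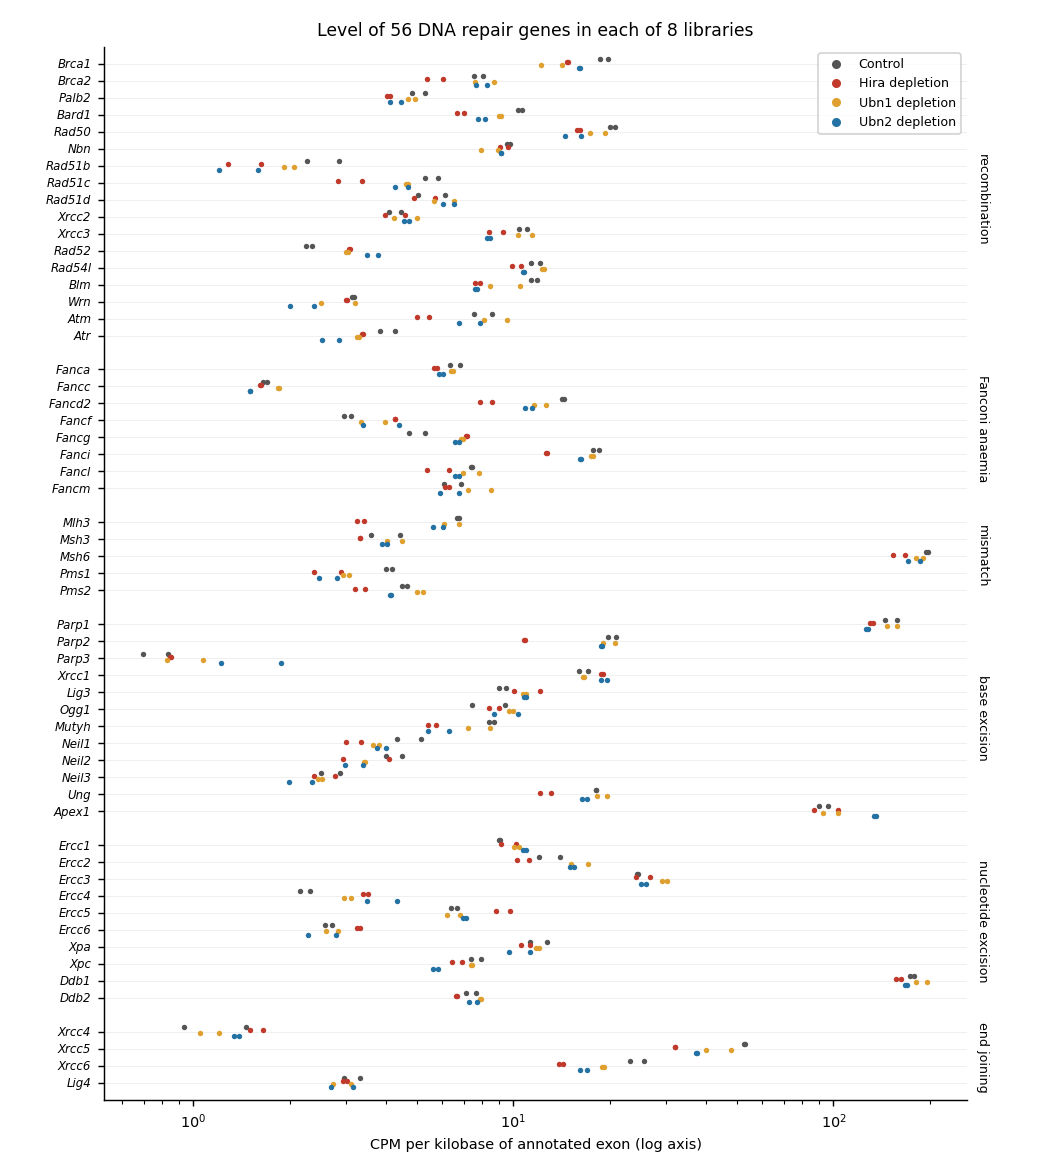
CPM per kilobase of annotated exon (log axis) of the 56 DNA repair genes, grouped by pathway, with a point for each of the 8 libraries in the color of its group. Msh6, Ddb1 and Parp1 lie above 100 in every library, and most of the other genes lie between 2 and 20.

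The promoters of the genes that fell furthest after Hira depletion are shown, and their shared direction is set by that choice. Some repair genes are classic targets of the cell cycle factor E2F and of NRF1, a regulator of housekeeping genes. A role of either factor here was not tested. RefSeq (GRCm38.p6) gave a window of 250 bases before and 50 bases after the transcription start for 46 of the 56 genes, taken at the most upstream start where it listed several. The 6 windows below belong to the 6 genes with the lowest log2 fold changes among those 46. Capitals mark the E2F motif TTTCCCGC and the NRF1 motif GCATGCGC, or their reverse complements GCGGGAAA and GCGCATGC, and other motifs were left in lower case. Each sequence runs 5′ to 3′ on the strand of its gene.
Mlh3: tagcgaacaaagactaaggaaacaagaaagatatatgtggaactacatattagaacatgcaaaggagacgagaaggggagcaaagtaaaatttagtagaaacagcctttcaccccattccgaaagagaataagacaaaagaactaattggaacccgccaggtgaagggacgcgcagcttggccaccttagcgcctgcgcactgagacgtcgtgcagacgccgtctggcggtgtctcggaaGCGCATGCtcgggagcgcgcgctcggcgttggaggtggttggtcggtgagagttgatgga
Parp2: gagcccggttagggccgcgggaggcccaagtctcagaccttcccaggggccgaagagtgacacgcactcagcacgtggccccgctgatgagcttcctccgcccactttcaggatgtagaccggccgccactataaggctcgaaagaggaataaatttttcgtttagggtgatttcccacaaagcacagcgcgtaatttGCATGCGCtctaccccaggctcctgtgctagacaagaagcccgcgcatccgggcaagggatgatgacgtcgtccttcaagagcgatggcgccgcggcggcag
Rad51c: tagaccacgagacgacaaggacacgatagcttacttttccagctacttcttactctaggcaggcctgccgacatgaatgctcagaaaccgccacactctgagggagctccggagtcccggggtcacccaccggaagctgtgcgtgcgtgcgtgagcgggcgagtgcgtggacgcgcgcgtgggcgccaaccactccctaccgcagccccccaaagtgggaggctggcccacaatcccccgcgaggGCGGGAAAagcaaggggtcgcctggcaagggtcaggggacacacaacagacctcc
Xrcc6: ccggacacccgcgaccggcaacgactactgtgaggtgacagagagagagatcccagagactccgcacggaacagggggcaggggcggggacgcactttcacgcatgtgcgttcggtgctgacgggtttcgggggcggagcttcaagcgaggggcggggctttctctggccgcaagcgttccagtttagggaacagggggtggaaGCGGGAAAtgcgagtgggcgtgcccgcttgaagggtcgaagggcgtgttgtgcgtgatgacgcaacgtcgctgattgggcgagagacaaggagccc
Rad51b: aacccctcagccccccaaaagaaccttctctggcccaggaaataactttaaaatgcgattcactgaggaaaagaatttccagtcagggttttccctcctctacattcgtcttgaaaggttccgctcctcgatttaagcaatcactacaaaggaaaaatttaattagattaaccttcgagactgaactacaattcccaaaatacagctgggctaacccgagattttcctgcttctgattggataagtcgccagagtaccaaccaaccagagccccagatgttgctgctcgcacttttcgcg
Xrcc5: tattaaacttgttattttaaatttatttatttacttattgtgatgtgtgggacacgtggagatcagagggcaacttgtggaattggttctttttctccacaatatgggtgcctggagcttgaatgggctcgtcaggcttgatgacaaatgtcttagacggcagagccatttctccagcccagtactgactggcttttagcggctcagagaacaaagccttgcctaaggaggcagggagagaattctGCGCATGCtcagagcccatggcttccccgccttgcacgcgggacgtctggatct

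The Mlh3 window lies at chr12:85270550-85270849 (- strand) and holds an NRF1 match whose first base is 10 bases before the start. The Parp2 window, at chr14:50807666-50807965 (+ strand), holds an NRF1 match 52 bases before the start and overlaps the annotated genes Rpph1 and Ccnb1ip1. The Xrcc5 window, at chr1:72307171-72307470 (+ strand), holds an NRF1 match that begins 4 bases before the start. E2F matches lay in the other pair of marked windows. That of Rad51c, at chr11:87404905-87405204 (- strand), begins 5 bases before the start in a window shared with Tex14, and that of Xrcc6, at chr15:82016119-82016418 (+ strand), begins 46 bases before the start in a window shared with Desi1. The GENCODE gene models of Xrcc6 and Parp2 begin upstream of these RefSeq starts, and the matches of both lie inside these models. The Rad51b window, at chr12:79297032-79297331 (+ strand), holds no match to either motif. None of the 5 matches in capitals shared a base with another motif that was searched.

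On both strands, the E2F motif TTTCCCGC was found in 6 of the 46 windows (13.0%) and in 1.11% of the 27025 windows of all genes. Those 6 were Bard1, Brca2, Fancg, Msh6, Rad51c and Xrcc6. A second E2F motif, TTTGGCGC, was in 1 window (Msh3, 2.17%) against 0.537% of all windows. The NRF1 motif was in 9 windows (19.6%) against 2.81%, in Atm, Ercc6, Fanci, Fancm, Lig4, Mlh3, Parp2, Xpa and Xrcc5. The ETS motif CCGGAAG was in 10 windows (21.7%) against 9.14%, the CCAAT box CCAAT in 26 (56.5%) against 38.0%, and the E-box CACGTG in 6 (13.0%) against 7.24%. The CHR motif TTTGAA, known from genes of mitosis, was in 2 windows (4.35%) against 18.2%. The windows of all genes were not matched to the 46 for expression or GC content, so an excess here need not be particular to repair genes. The motifs were chosen with the expression results known, and a match describes letters in a window, not a site bound by a factor.

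The first comparison asks which repair genes respond to loss of Hira. After Hira depletion 29 of the 56 genes fell and 6 rose, whereas 17.3% of all 19035 genes tested fell and 17.6% rose. Genes that fell thus made up 51.8% of the repair genes. In either direction 62.5% of the repair genes changed, beside 34.9% of all genes tested. The repair genes had a higher median control level, 37.7 CPM against 13.0 CPM, and passing the test depends in part on level. No comparison with genes of matched level was made. The falls were called for 12 genes (21.4%, against 5.4% of all genes tested), namely Bard1, Rad51b, Rad51c, Blm, Atm, Fancd2, Mlh3, Pms1, Parp2, Mutyh, Xrcc5 and Xrcc6. The only called rise among the 56 was that of Ercc4 (1.79%, against 10.8% of all genes tested). The median log2 fold change of the 56 genes was -0.22, and that of all genes tested was 0.01. The extremes were Mlh3 at -1.02 and Ercc4 at 0.61.

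Leaving out 1 library at a time left between 21 and 24 of the 29 falls under an adjusted p of 0.05, with the fewest without control replicate 1. No sign changed among the 29. Under DESeq2, the tool of the study, 23 of the 29 passed. Those that did not were Fanca, Fancl, Msh3, Neil1, Rad54l and Xrcc3. Of the 6 rises, 3 passed without control replicate 2, and the called rise of Ercc4 dropped under 1.5-fold without Hira_KD replicate 1. Genes of S phase also fell in these libraries, with 30 of 35 lower and a summed level of 5255 and 5675 CPM against 7476 and 7536 CPM in control. The part of S phase and of the neural, ESC, endoderm and muscle markers in the repair gene result was not tested.

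Ubn1 depletion changed few of the repair genes. Its target was 2.04-fold lower, against 9.29-fold for Hira after Hira depletion, and the part of this difference was not tested. Brca1, Atr, Pms1 and Xrcc6 fell (4 of 56, 7.14%, against 3.62% of the 18373 genes tested) and Fancg and Ercc4 rose (2 of 56, 3.57%, against 4.14%). No repair gene was called by edgeR or by DESeq2 in either direction, while 1.56% of all genes tested were called lower and 1.53% higher. At an unadjusted p under 0.05 there were 17 of the 56 genes. The median log2 fold change was -0.01. These counts changed with the libraries kept and with the method. Fewer of these genes passed when either control replicate was left out, and more genes fell without Ubn1_KD replicate 1. With all 4 libraries kept, the rises numbered 0 under DESeq2 and 1 with no filter on low counts. The replicate block gave 7 falls and 6 rises. A single gene was called lower without control replicate 2 and likewise without Ubn1_KD replicate 1.

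Ubn2 depletion lowered 17 of the 56 genes (30.4%, against 19.1% of the 18219 genes tested) and raised 9 (16.1%, against 20.0%). In either direction 46.4% of the repair genes changed, beside 39.1% of all genes tested. Called lower were Rad51b, Blm, Atr and Pms1 (7.14%, against 8.75% of all genes tested), and called higher were Rad52, Parp3 and Ercc4 (5.36%, against 9.59%). These called shares lay below those of all genes. The median log2 fold change was -0.14. The rises that passed numbered 4 without Ubn2_KD replicate 2 and 5 without control replicate 1, and the genes called lower numbered 2 without control replicate 1.

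In the same Ubn2-depleted libraries 8 of 11 muscle markers rose and 1 fell (72.7% and 9.09%, against 20.0% and 19.1% of all genes tested). Actc1 was at 85.3 and 49.7 CPM against 0.0974 and 0.189 CPM in control, and Tnnt2 at 38.9 and 24.1 against 0.390 and 0.220 CPM. The 8 blood markers summed to 8.74 and 5.25 CPM, against 0.876 and 0.817 in control. Mitochondrial transcripts held 1.45% and 1.41% of counts, and between 0.821% and 1.17% in the other libraries. The part of these differences, and of the neural, fibroblast and ESC markers, in the repair gene result was not tested. The 3 depletions were compared with the same control libraries, so their values stand side by side below and are not independent of each other.

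**Figure D2:**
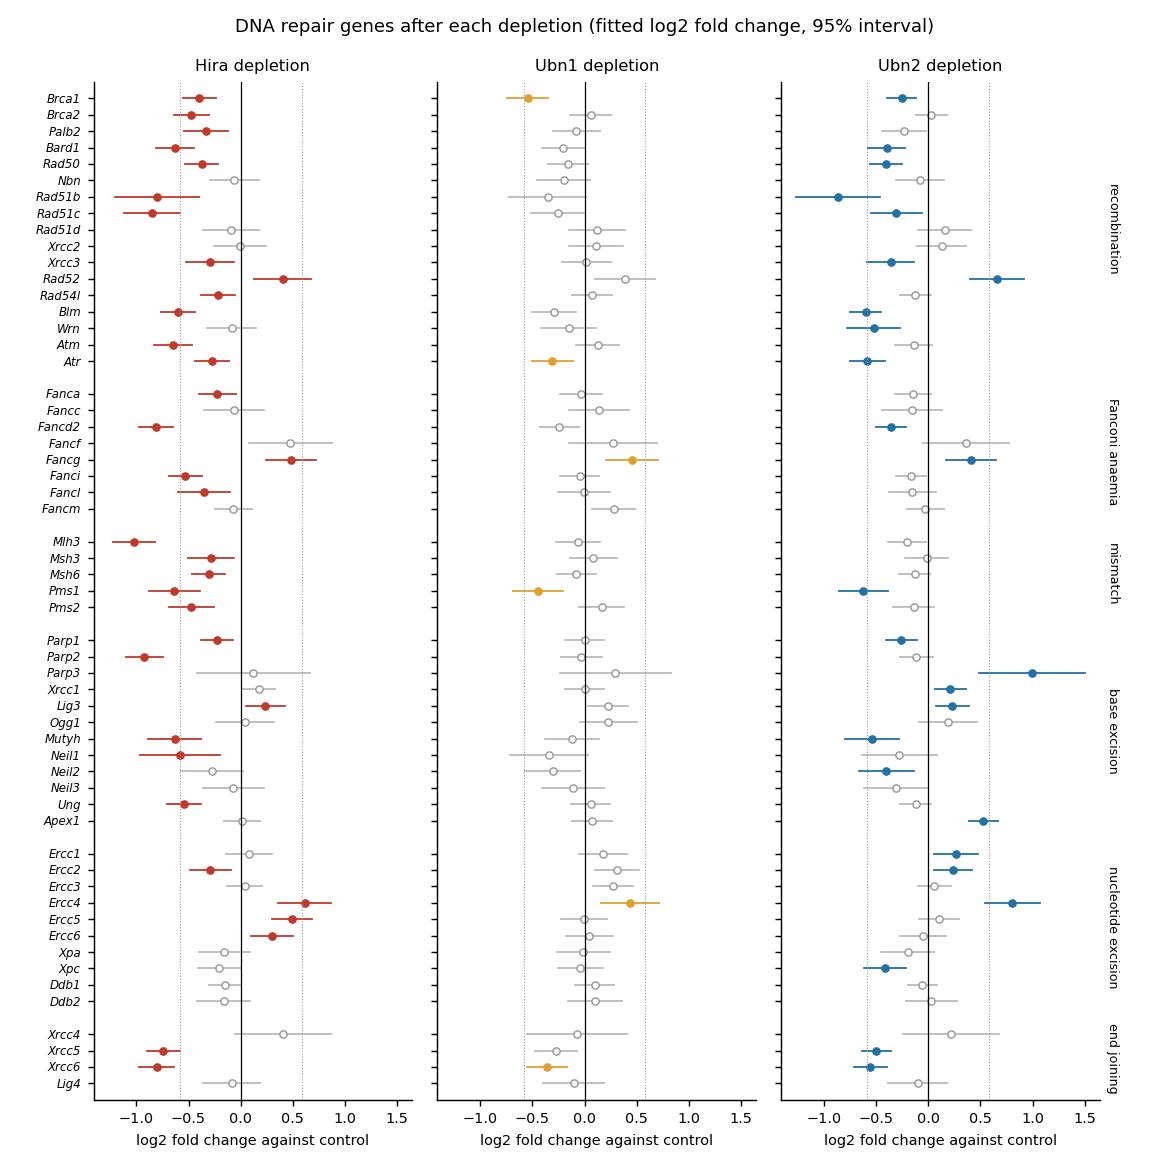
Fitted log2 fold change against control (horizontal axis) of the 56 DNA repair genes after Hira, Ubn1 and Ubn2 depletion, with 95% intervals as lines. Filled points have an edgeR adjusted p under 0.05 and dotted lines mark 1.5-fold. The Hira panel holds 29 filled points left of 0 and 6 right of it, the Ubn1 panel 4 and 2, and the Ubn2 panel 17 and 9.

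Recombination held the largest number of falls. Of the 17, 12 fell and 1 rose after Hira depletion with a median log2 fold change of -0.33 and with 16 of the 17 values below 0, 9 fell and 1 rose after Ubn2 depletion with a median of -0.25, and 2 fell after Ubn1 depletion with a median of -0.15. The falls were 70.6%, 52.9% and 11.8% of the list, against 17.3%, 19.1% and 3.62% of all genes tested after Hira, Ubn2 and Ubn1 depletion. The group includes mediators of strand exchange, the helicases that dissolve joined chromosomes and the kinases that sense breaks.

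Among the mediators, Brca1 encodes the scaffold of the break response. It had 169 and 159 CPM in the control libraries, 126 and 126 with Hira depleted, 121 and 104 with Ubn1 depleted and 137 and 138 with Ubn2 depleted. All 6 depleted libraries lay below both controls, and those of Ubn1 lay lowest. The log2 fold change of Brca1 was -0.55 (SE 0.10, edgeR adjusted p = 0.000346) after Ubn1 depletion, which was the largest of the 56 genes there, -0.40 (SE 0.07, edgeR adjusted p = 0.000321) after Hira depletion and -0.25 (SE 0.07, edgeR adjusted p = 0.00447) after Ubn2 depletion.

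Bard1, at chr1:71027498-71103146, encodes the partner that forms the BRCA1 ubiquitin ligase. Its control libraries had 58.3 and 60.3 CPM, and it was at 39.7 and 37.7 CPM with Hira depleted, 51.1 and 51.8 with Ubn1 depleted and 46.2 and 43.8 with Ubn2 depleted. The groups did not overlap with control, and the Hira libraries were lowest. Bard1 fell after Hira depletion by a log2 fold change of -0.63 (SE 0.09, edgeR adjusted p = 1.38e-05) and after Ubn2 depletion by -0.40 (SE 0.08, edgeR adjusted p = 0.000767). After Ubn1 depletion it was -0.21 (SE 0.10, edgeR adjusted p = 0.218). Brca2, a mediator of strand exchange, fell after Hira depletion at -0.47 (SE 0.08, edgeR adjusted p = 0.00011), while its Ubn2 libraries, at 113 and 104 CPM, overlapped with the control libraries, at 103 and 109.8 CPM. Palb2, the bridge between BRCA1 and BRCA2, fell after Hira depletion at -0.33 (SE 0.10, edgeR adjusted p = 0.0148), and it did not pass without control replicate 2 or Hira_KD replicate 1 (-0.31 to -0.26, edgeR adjusted p between 0.0547 and 0.151).

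Rad51b and Rad51c encode subunits of complexes that assist strand exchange. Rad51b (chr12:79297282-79814690) was a weakly expressed gene, with 10.7 and 8.49 CPM in control, 6.11 and 4.84 with Hira depleted, 7.21 and 7.76 with Ubn1 depleted and 4.50 and 5.96 with Ubn2 depleted. Every depleted library lay below the lower control. Its log2 fold change was -0.80 (SE 0.19, edgeR adjusted p = 0.00282) after Hira depletion and -0.87 (SE 0.19, edgeR adjusted p = 0.00118) after Ubn2 depletion. Rad51c (chr11:87376645-87404954) had 23.2 and 25.4 CPM in control, 14.7 and 12.4 with Hira depleted, 20.2 and 20.6 with Ubn1 depleted and 18.8 and 20.6 with Ubn2 depleted. The Hira libraries lay well under the rest. Rad51c changed by -0.85 (SE 0.13, edgeR adjusted p = 3.39e-05) after Hira depletion and by -0.31 (SE 0.12, edgeR adjusted p = 0.0406) after Ubn2 depletion. The latter did not pass without control replicate 2, at -0.24 (edgeR adjusted p = 0.227), or without Ubn2_KD replicate 1, at -0.24 (edgeR adjusted p = 0.233).

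Xrcc3, whose protein pairs with RAD51C, fell after Hira depletion at -0.30 (SE 0.11, edgeR adjusted p = 0.0415), where it did not pass without control replicate 1, control replicate 2 or Hira_KD replicate 2 (-0.34 to -0.23, edgeR adjusted p between 0.0613 and 0.203). It fell after Ubn2 depletion at -0.36 (SE 0.11, edgeR adjusted p = 0.0101), where it did not pass without control replicate 2 or Ubn2_KD replicate 1 (-0.35 to -0.32, edgeR adjusted p between 0.052 and 0.0589). Rad51d and Xrcc2 passed the test in no depletion, with log2 fold changes between -0.09 and 0.16 for Rad51d and between -0.01 and 0.13 for Xrcc2. Rad54l, a motor protein of strand invasion, was -0.22 (SE 0.08, edgeR adjusted p = 0.0389) after Hira depletion, where it did not pass without control replicate 1 or Hira_KD replicate 1 (-0.17, edgeR adjusted p between 0.203 and 0.242). Rad54l shares 15.4% of its exon bases with Lrrc41 on the opposite strand.

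Rad52, which anneals single strands, was the recombination gene that rose. It had 13.5 and 13.0 CPM in control, 17.7 and 17.6 with Hira depleted, 17.3 and 17.5 with Ubn1 depleted and 21.7 and 20.0 with Ubn2 depleted. All depleted libraries lay above both controls, with those of Ubn2 highest. The rise at Rad52 (chr6:119902698-119922828) was 0.66 (SE 0.13, edgeR adjusted p = 0.000299) after Ubn2 depletion, where it was called, and 0.40 (SE 0.13, edgeR adjusted p = 0.0221) after Hira depletion, where leaving out any library other than Hira_KD replicate 2 moved the adjusted p of edgeR to between 0.0575 and 0.12. After Ubn1 depletion the value was 0.39 (SE 0.14, edgeR adjusted p = 0.0848).

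Blm encodes the helicase missing in Bloom syndrome, which dissolves joined recombination intermediates. Blm (chr7:80454733-80535119) had 104 and 99.7 CPM in control, 68.8 and 66.5 with Hira depleted, 92.2 and 74.4 with Ubn1 depleted and 67.3 and 66.7 with Ubn2 depleted. The Hira and Ubn2 libraries sat together at the lower level. Its log2 fold change was -0.60 (SE 0.08, edgeR adjusted p = 5.22e-06) after Hira depletion and -0.60 (SE 0.07, edgeR adjusted p = 1.27e-06) after Ubn2 depletion. Wrn, the helicase of Werner syndrome, differed from Blm. It had 24.2 and 23.8 CPM in control and 22.8 and 23.0 CPM after Hira depletion, a log2 fold change of -0.09 (SE 0.11, edgeR adjusted p = 0.597). After Ubn2 depletion Wrn fell to 15.3 and 18.1 CPM, at -0.52 (SE 0.12, edgeR adjusted p = 0.00178). Of the MRN complex that holds broken ends, Rad50 fell after Hira depletion at -0.37 (SE 0.08, edgeR adjusted p = 0.000638) and after Ubn2 depletion at -0.41 (SE 0.07, edgeR adjusted p = 0.000152), and Nbn passed in neither, at -0.06 and -0.08.

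The kinases Atm and Atr, which signal from broken ends and from stalled forks, moved differently. Atm (chr9:53439149-53536740) had 89.0 and 78.2 CPM in control, 51.8 and 56.2 with Hira depleted, 98.5 and 84.0 with Ubn1 depleted and 81.2 and 69.8 with Ubn2 depleted. Only the Hira libraries lay clear of control for Atm, with a log2 fold change of -0.65 (SE 0.09, edgeR adjusted p = 8.72e-06) against -0.14 (SE 0.09, edgeR adjusted p = 0.197) after Ubn2 depletion. Atr (chr9:95857597-95951781) had 100.5 and 90.7 CPM in control, 79.3 and 80.3 with Hira depleted, 76.9 and 77.6 with Ubn1 depleted and 67.4 and 59.8 with Ubn2 depleted. The Ubn2 libraries were the lowest for Atr, at -0.59 (SE 0.08, edgeR adjusted p = 7.6e-06). The smaller changes were -0.28 (SE 0.08, edgeR adjusted p = 0.0101) after Hira depletion and -0.31 (SE 0.10, edgeR adjusted p = 0.0414) after Ubn1 depletion. The Hira value became -0.21 (edgeR adjusted p = 0.145) without control replicate 1, and the Ubn1 value -0.23 (edgeR adjusted p = 0.525) without it and -0.39 (edgeR adjusted p = 0.125) without control replicate 2.

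**Figure D3:**
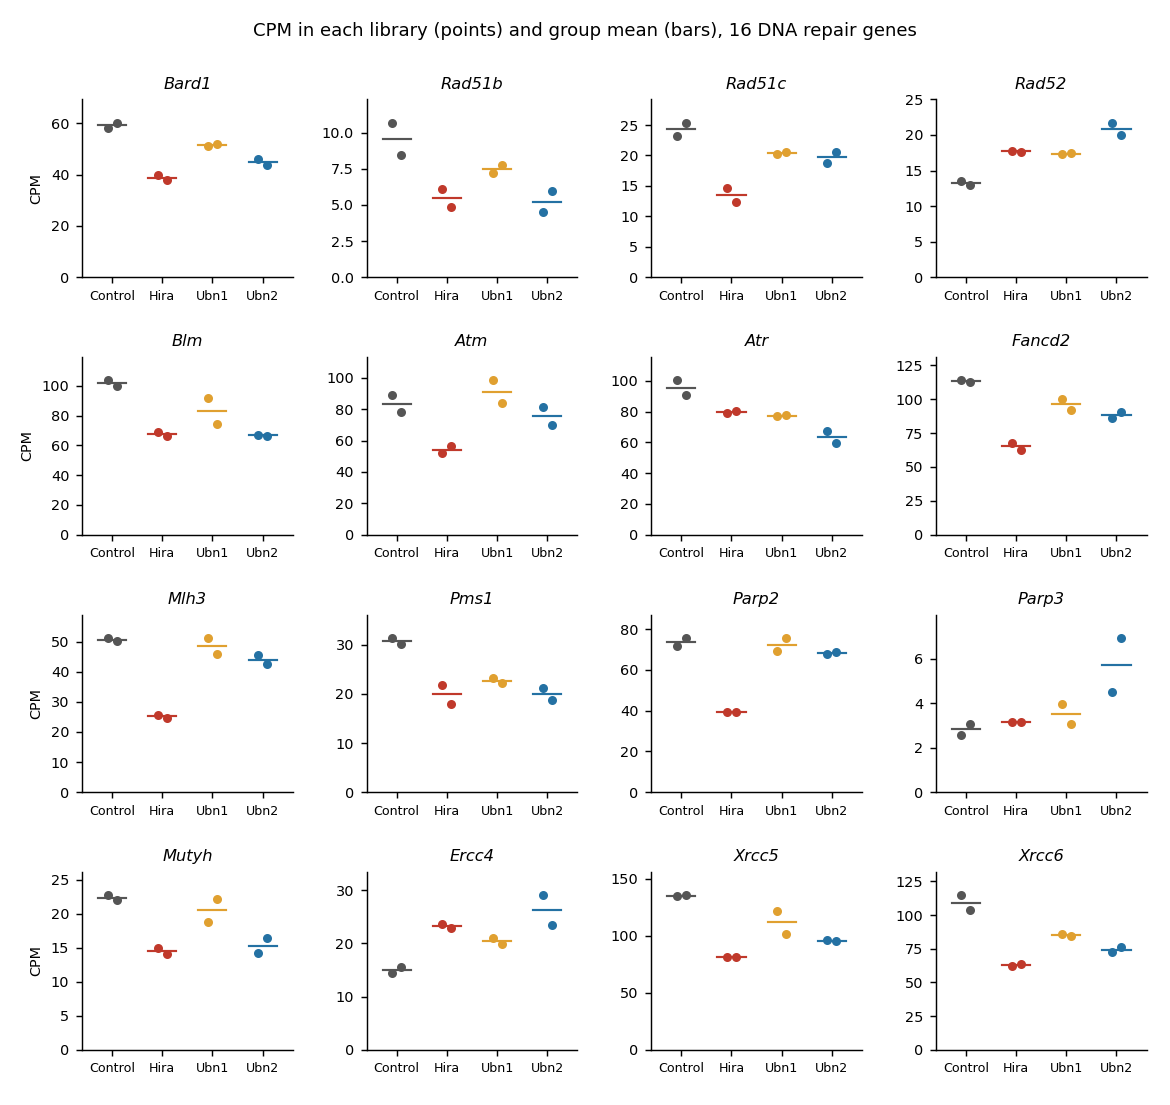
CPM (vertical axes, from 0) in each library for the 16 DNA repair genes past both thresholds in at least 1 comparison. Points are libraries, 2 per group, and bars are group means. In the panels of Mlh3, Parp2 and Atm the Hira points alone lie low, in those of Blm and Pms1 the Hira and Ubn2 points lie at one level, and in those of Rad52 and Ercc4 the control points lie lowest.

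Fanconi anemia genes were divided between a core that recognizes crosslinks and a pair that is loaded onto DNA. After Hira depletion 4 of 8 fell (50%, against 17.3% of all genes tested) and 1 rose. After Ubn2 depletion 1 fell and 1 rose (12.5% each, below the 19.1% and 20.0% of all genes tested), and after Ubn1 depletion 1 rose. The falls included both members of the loaded pair. Fancd2 (chr6:113531682-113597017) had 114 and 113 CPM in control, 67.9 and 62.5 with Hira depleted, 100.3 and 92.0 with Ubn1 depleted and 86.2 and 90.5 with Ubn2 depleted. The Hira libraries lay below all other libraries, with a log2 fold change of -0.81 (SE 0.08, edgeR adjusted p = 1.58e-07), and the Ubn2 libraries lay between them and control, at -0.36 (SE 0.07, edgeR adjusted p = 0.000295). Its partner Fanci had 107 and 103 CPM in control and 73.5 and 73.2 after Hira depletion, a change of -0.53 (SE 0.08, edgeR adjusted p = 1.89e-05). After Ubn2 depletion Fanci was -0.16 (SE 0.07, edgeR adjusted p = 0.0685). Fanci shares 16.0% of its exon bases with Polg on the opposite strand, which was at -0.19 (edgeR adjusted p = 0.0488) after Hira depletion.

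In the core complex, Fancl, the ubiquitin ligase subunit that marks the loaded pair, fell after Hira depletion at -0.35 (SE 0.12, edgeR adjusted p = 0.0267), but it did not pass without control replicate 1, control replicate 2 or Hira_KD replicate 2 (-0.36 to -0.25, edgeR adjusted p between 0.0634 and 0.187). Fanca, another core subunit, fell at -0.22 (SE 0.09, edgeR adjusted p = 0.048), but it did not pass without any 1 of the 4 libraries (-0.28 to -0.18, edgeR adjusted p between 0.0578 and 0.271). Fancl shares 13.7% of its exon bases with Vrk2 on the opposite strand, which was at -0.45 (edgeR adjusted p = 0.0666) after Hira depletion. Fanca shares 10.5% with Zfp276 on the opposite strand, which was at 0.04 (edgeR adjusted p = 0.858). Fancg, an adaptor of the core, went the other way from Fancl and Fanca. Fancg had 17.9 and 20.1 CPM in control, 26.9 and 27.1 with Hira depleted, 26.4 and 26.0 with Ubn1 depleted and 25.7 and 24.9 with Ubn2 depleted. All 6 depleted libraries lay above both controls and close to each other. The rise of Fancg was 0.48 (SE 0.12, edgeR adjusted p = 0.00261) after Hira depletion, 0.46 (SE 0.12, edgeR adjusted p = 0.02) after Ubn1 depletion and 0.41 (SE 0.12, edgeR adjusted p = 0.00799) after Ubn2 depletion. Without control replicate 1 the Ubn1 value was 0.38 (edgeR adjusted p = 0.269) and the Ubn2 value 0.32 (edgeR adjusted p = 0.0604), and without control replicate 2 the Ubn1 value was 0.54 (edgeR adjusted p = 0.0629). Fancc, Fancf and Fancm passed the test after no depletion, with 0.48 for Fancf after Hira depletion as the largest of their values (edgeR adjusted p = 0.0593).

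Mismatch repair was the pathway in which all 5 listed genes fell after Hira depletion (100%, against 17.3% of all genes tested). Their median log2 fold change was -0.47. Pms1 was the 1 gene of the 5 that fell after Ubn1 and after Ubn2 depletion (20.0%, against 3.62% and 19.1% of all genes tested). With 5 genes, a share of 20.0% is a single gene. Mlh3 (chr12:85234520-85270599), a MutL protein known for its role in meiotic crossovers, was the repair gene with the largest fall of all. It had 51.1 and 50.2 CPM in control, 25.8 and 24.5 with Hira depleted, 51.2 and 45.7 with Ubn1 depleted and 45.5 and 42.4 with Ubn2 depleted. Its Hira libraries lay 2.03-fold under control in the fit, while the Ubn1 and Ubn2 libraries stayed close to control. The log2 fold change of Mlh3 was -1.02 (SE 0.10, edgeR adjusted p = 1.2e-07) after Hira depletion and -0.20 (SE 0.09, edgeR adjusted p = 0.0694) after Ubn2 depletion.

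Pms1 (chr1:53189187-53297018), another MutL protein, had 31.4 and 30.2 CPM in control, 21.8 and 18.0 with Hira depleted, 23.2 and 22.2 with Ubn1 depleted and 21.2 and 18.7 with Ubn2 depleted. All depleted libraries of Pms1 lay below both controls, and those of Hira and Ubn2 overlapped. The fall was -0.64 (SE 0.12, edgeR adjusted p = 0.000266) after Hira depletion, -0.44 (SE 0.12, edgeR adjusted p = 0.0162) after Ubn1 depletion and -0.62 (SE 0.11, edgeR adjusted p = 0.000146) after Ubn2 depletion. Without control replicate 1 the Ubn1 value was -0.41 (edgeR adjusted p = 0.181), and without control replicate 2 it was -0.48 (edgeR adjusted p = 0.0845). Pms2, a MutL nuclease, fell after Hira depletion at -0.47 (SE 0.10, edgeR adjusted p = 0.00119). The mismatch recognition genes fell less, Msh6 at -0.31 (SE 0.07, edgeR adjusted p = 0.00308) from 858 and 844 to 665 and 727 CPM and Msh3 at -0.28 (SE 0.10, edgeR adjusted p = 0.0386), where it did not pass without control replicate 1, Hira_KD replicate 1 or Hira_KD replicate 2 (-0.29 to -0.13, edgeR adjusted p between 0.0532 and 0.485).

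Base excision and single-strand break repair was mixed. Of its 12 genes 5 fell and 1 rose after Hira depletion with a median log2 fold change of -0.15, 3 fell and 4 rose after Ubn2 depletion with a median of -0.12, and none passed edgeR's test after Ubn1 depletion, where Lig3 and Neil2 were the genes with an unadjusted p of edgeR under 0.05. The Ubn2 shares, 25.0% lower and 33.3% higher, stand against 19.1% and 20.0% of all genes tested, and the Hira shares, 41.7% and 8.33%, against 17.3% and 17.6%. Among the PARP enzymes, which mark broken strands with ADP-ribose chains, Parp2 (chr14:50807841-50821301) had 71.9 and 75.8 CPM in control, 39.3 and 39.3 with Hira depleted, 69.1 and 75.5 with Ubn1 depleted and 68.0 and 68.6 with Ubn2 depleted. The Hira libraries of Parp2 nearly coincided and lay far under the rest. Its log2 fold change was -0.93 (SE 0.09, edgeR adjusted p = 8.74e-08) after Hira depletion, -0.03 (SE 0.10, edgeR adjusted p = 0.886) after Ubn1 depletion and -0.12 (SE 0.08, edgeR adjusted p = 0.246) after Ubn2 depletion. Parp1, with 769 and 838 CPM in control, fell to 686 and 704 CPM after Hira depletion, a change of -0.23 (SE 0.07, edgeR adjusted p = 0.0232), and it did not pass without control replicate 2 (-0.17, edgeR adjusted p = 0.301). After Ubn2 depletion Parp1 was at 677 and 667 CPM, a change of -0.26 (SE 0.07, edgeR adjusted p = 0.00639), and it did not pass without control replicate 2 (-0.20, edgeR adjusted p = 0.099).

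Parp3 (chr9:106470322-106476949), which assists end joining, was the least expressed of the 56. It had 2.58 and 3.08 CPM in control, 3.15 and 3.13 with Hira depleted, 3.97 and 3.07 with Ubn1 depleted and 4.50 and 6.93 with Ubn2 depleted. The Ubn2 libraries were the highest but far apart from each other. The rise was 1.00 (SE 0.25, edgeR adjusted p = 0.00279), and without Ubn2_KD replicate 2 it was 0.66 (edgeR adjusted p = 0.0773). Muscle markers summed to 378 CPM in Ubn2_KD replicate 1 and to 246 CPM in Ubn2_KD replicate 2, and a link to Parp3 was not tested.

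Glycosylases remove damaged bases. Mutyh (chr4:116807723-116819440), which removes adenine paired with oxidized guanine, had 22.7 and 22.0 CPM in control, 14.9 and 14.1 with Hira depleted, 18.8 and 22.1 with Ubn1 depleted and 14.2 and 16.5 with Ubn2 depleted. The Hira and Ubn2 libraries of Mutyh lay below control and the Ubn1 libraries overlapped with it. Mutyh changed by -0.63 (SE 0.12, edgeR adjusted p = 0.000458) after Hira depletion and by -0.55 (SE 0.12, edgeR adjusted p = 0.00148) after Ubn2 depletion. Ung, which removes uracil, went from 99.3 and 99.0 CPM in control to 66.2 and 71.5 CPM after Hira depletion, a change of -0.54 (SE 0.08, edgeR adjusted p = 1.86e-05), and was -0.12 (SE 0.07, edgeR adjusted p = 0.172) after Ubn2 depletion. Neil1 fell after Hira depletion just short of 1.5-fold, at -0.58 (SE 0.19, edgeR adjusted p = 0.0188), and it did not pass without control replicate 1 or Hira_KD replicate 2 (-0.51 to -0.46, edgeR adjusted p between 0.06 and 0.149). Neil2 fell after Ubn2 depletion at -0.40 (SE 0.13, edgeR adjusted p = 0.0147), and it did not pass without control replicate 1 or Ubn2_KD replicate 2 (-0.33 to -0.31, edgeR adjusted p between 0.09 and 0.114). Ogg1 and Neil3 passed the test after no depletion, with Ogg1 at 0.05 and Neil3 at -0.07 in the Hira comparison and at 0.19 and -0.31 in that of Ubn2.

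Downstream of the glycosylases, Apex1 had 137 and 128 CPM in control, 124 and 147 with Hira depleted, 147 and 132 with Ubn1 depleted and 192 and 190.1 with Ubn2 depleted. Only the Ubn2 group of Apex1 had both libraries above both controls, with a rise of 0.53 (SE 0.07, edgeR adjusted p = 2.87e-06). After Hira depletion the value was 0.01 (SE 0.08, edgeR adjusted p = 0.917). Apex1 shares 61.7% of its exon bases with Pip4p1 on the opposite strand, and Pip4p1 was at 0.25 (edgeR adjusted p = 0.00605) after Ubn2 depletion. Reads of both genes cannot be told apart without strand. Xrcc1, the scaffold that gathers the ligation step, rose after Ubn2 depletion at 0.21 (SE 0.07, edgeR adjusted p = 0.0203), and it did not pass without control replicate 1 or Ubn2_KD replicate 2 (0.16 to 0.18, edgeR adjusted p between 0.139 and 0.141). Lig3, the ligase bound to it, had 65.7 and 69.1 CPM in control, 73.0 and 88.3 with Hira depleted, 77.9 and 79.8 with Ubn1 depleted and 79.9 and 78.6 with Ubn2 depleted. The Hira libraries of Lig3 were far apart, and the rise was 0.24 (SE 0.09, edgeR adjusted p = 0.0443), where it did not pass without control replicate 1, control replicate 2 or Hira_KD replicate 2 (0.09 to 0.27, edgeR adjusted p between 0.0542 and 0.55). The Ubn2 rise of Lig3 was 0.23 (SE 0.08, edgeR adjusted p = 0.0189), and it did not pass without control replicate 1, Ubn2_KD replicate 1 or Ubn2_KD replicate 2 (0.19 to 0.24, edgeR adjusted p between 0.0557 and 0.109). Lig3 shares 25.1% of its exon bases with Rffl, which was at 0.31 (edgeR adjusted p = 0.0106) after Hira depletion.

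Nucleotide excision repair had 3 rises and 1 fall among 10 genes after Hira depletion (30.0% and 10.0%, against 17.6% and 17.3% of all genes tested). It had 3 rises and 1 fall after Ubn2 depletion as well (against 20.0% and 19.1%), and after Ubn1 depletion 1 gene rose (10.0%, against 4.14%). With 10 genes, these shares rest on single genes. The median log2 fold change was -0.06 after Hira depletion and 0.04 after Ubn2 depletion. Ercc4 (chr16:13109684-13150617) encodes XPF, the nuclease that cuts on the upstream side of the damage and also acts on crosslinks. It had 14.5 and 15.6 CPM in control, 23.6 and 22.9 with Hira depleted, 20.9 and 19.9 with Ubn1 depleted and 29.1 and 23.4 with Ubn2 depleted. Every depleted library exceeded both controls. Ercc4 rose by 0.61 (SE 0.12, edgeR adjusted p = 0.000563) after Hira depletion, by 0.44 (SE 0.13, edgeR adjusted p = 0.0407) after Ubn1 depletion and by 0.80 (SE 0.13, edgeR adjusted p = 3.77e-05) after Ubn2 depletion. The Ubn1 value was 0.39 (edgeR adjusted p = 0.304) without control replicate 1, 0.49 (edgeR adjusted p = 0.151) without control replicate 2 and 0.39 (edgeR adjusted p = 0.0933) without Ubn1_KD replicate 1. Ercc1, its obligate partner, rose after Ubn2 depletion at 0.26 (SE 0.10, edgeR adjusted p = 0.0419), but it did not pass without any 1 of the 4 libraries (0.25 to 0.28, edgeR adjusted p between 0.0976 and 0.15).

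Ercc5, the XPG nuclease that cuts on the other side, had 37.4 and 39.1 CPM in control, 57.3 and 51.9 with Hira depleted, 40.1 and 36.3 with Ubn1 depleted and 41.6 and 40.7 with Ubn2 depleted. The Hira libraries of Ercc5 alone stood well above the rest, at 0.50 (SE 0.09, edgeR adjusted p = 0.000271). Ercc6, the CSB protein that couples repair to transcription, rose in the Hira libraries as well, at 0.30 (SE 0.10, edgeR adjusted p = 0.0179), but it did not pass without control replicate 2 or Hira_KD replicate 2 (0.26 to 0.28, edgeR adjusted p between 0.0675 and 0.127). Of the helicase genes of the TFIIH complex, Ercc2 fell after Hira depletion at -0.29 (SE 0.10, edgeR adjusted p = 0.022), where it did not pass without control replicate 1 or Hira_KD replicate 1 (-0.23 to -0.19, edgeR adjusted p between 0.125 and 0.258). It rose after Ubn2 depletion at 0.23 (SE 0.09, edgeR adjusted p = 0.0381), where it did not pass without control replicate 2, Ubn2_KD replicate 1 or Ubn2_KD replicate 2 (0.12 to 0.25, edgeR adjusted p between 0.0609 and 0.384). Ercc3, the other helicase, passed in no depletion, at 0.04, 0.27 and 0.06 after Hira, Ubn1 and Ubn2 depletion. Ercc2 shares 24.6% of its exon bases with the antisense gene Gm26852 and 17.8% with Klc3. Of the damage sensors, Xpc fell after Ubn2 depletion at -0.41 (SE 0.10, edgeR adjusted p = 0.00177), from 43.4 and 40.4 to 30.9 and 32.0 CPM, while Ddb1, Ddb2 and Xpa passed in no depletion, with values between -0.20 and 0.10 on the log2 scale.

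End joining genes fell in 1 complex and not in the other. Xrcc6 and Xrcc5 encode Ku70 and Ku80, the ring that captures broken ends. Xrcc5 (chr1:72307421-72394952) had 135 and 136 CPM in control, 81.8 and 81.6 with Hira depleted, 122 and 102 with Ubn1 depleted and 95.9 and 95.4 with Ubn2 depleted. The Hira libraries were lowest, the Ubn2 libraries next and the Ubn1 libraries spread below control. Xrcc5 changed by -0.74 (SE 0.08, edgeR adjusted p = 2.64e-07) after Hira depletion, by -0.50 (SE 0.07, edgeR adjusted p = 4.95e-06) after Ubn2 depletion and by -0.27 (SE 0.10, edgeR adjusted p = 0.0795) after Ubn1 depletion.

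Xrcc6 (chr15:81987835-82040085) had 115 and 104 CPM in control, 62.4 and 63.9 with Hira depleted, 86.0 and 84.7 with Ubn1 depleted and 72.4 and 76.0 with Ubn2 depleted. Its groups did not overlap with each other. Xrcc6 changed by -0.81 (SE 0.08, edgeR adjusted p = 2.27e-07) after Hira depletion, by -0.56 (SE 0.07, edgeR adjusted p = 5.11e-06) after Ubn2 depletion and by -0.36 (SE 0.09, edgeR adjusted p = 0.0165) after Ubn1 depletion. The Ubn1 value was -0.28 (edgeR adjusted p = 0.376) without control replicate 1 and -0.43 (edgeR adjusted p = 0.0674) without control replicate 2. Xrcc6 shares 7.69% of its exon bases with Desi1 on the opposite strand, which rose to 0.25 (edgeR adjusted p = 0.0411) after Hira depletion. The ligation genes of the 56, Lig4 and Xrcc4, passed in no depletion, with Lig4 at -0.09 (SE 0.13, edgeR adjusted p = 0.657) and Xrcc4 at 0.41 (SE 0.22, edgeR adjusted p = 0.162) after Hira depletion, and Xrcc4 counted among the least expressed of the 56.

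The Hira and Ubn2 libraries were then compared with each other, without the control libraries, to ask which repair genes differed between the depletions. The depletions differed in strength, at 9.29-fold for Hira and 1.86-fold for Ubn2. Against control, the Hira-depleted libraries had Ubn1 at 0.475 (edgeR adjusted p = 0.000464) and Ubn2 at 0.26 (edgeR adjusted p = 0.0231). The Ubn2-depleted libraries had Hira at 0.19 (edgeR adjusted p = 0.0424) and Ubn1 at -0.22 (edgeR adjusted p = 0.0807). The part of these differences was not tested. Cell type markers also differed in this direct comparison. After Hira depletion 9 of 11 muscle markers were lower than after Ubn2 depletion (81.8%, against 17.2% of all genes tested). Of 8 neural markers 6 were higher (75.0%, against 18.6%). Of 8 fibroblast markers tested 3 were higher and 3 lower (37.5% each), and 2 of 3 blood markers were lower (66.7%). Of 11 ESC markers 4 were lower and 1 higher (36.4% and 9.09%). The part of these markers in the repair gene result was not tested. Among the 56 genes, 15 were lower after Hira depletion (26.8%, against 17.2% of the 18563 genes tested) and 4 were higher (7.14%, against 18.6%). In either direction the share was 33.9% for the repair genes and 35.8% for all genes tested, so this share lay near the background. Past both thresholds were 3 genes lower, Mlh3, Parp2 and Parp3 (5.36%, against 5.61% of all genes tested), and 0 higher, where DESeq2 also called 0 and 12.0% of all genes tested were called. The median log2 difference of the 56 was -0.07.

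Mlh3 was -0.80 (SE 0.10, edgeR adjusted p = 2.83e-05) and Parp2 -0.79 (SE 0.08, edgeR adjusted p = 6.44e-06) in this comparison, the clearest of the differences. Parp3 was -0.85 (SE 0.25, edgeR adjusted p = 0.016), and it did not pass without Ubn2_KD replicate 2 (-0.51, edgeR adjusted p = 0.243). In recombination Rad51c (-0.52, SE 0.13), Atm (-0.48, SE 0.09) and Brca2 (-0.48, SE 0.08) were lower after Hira than after Ubn2 depletion. Wrn (0.46, SE 0.12) was higher after Hira depletion, but it did not pass without Ubn2_KD replicate 1 (0.34, edgeR adjusted p = 0.115). Atr (0.33, SE 0.08) was higher as well, but it did not pass without Ubn2_KD replicate 2 (0.25, edgeR adjusted p = 0.0785). The Fanconi pair was lower after Hira depletion, Fancd2 at -0.43 (SE 0.08, edgeR adjusted p = 0.00069) and Fanci at -0.35 (SE 0.07, edgeR adjusted p = 0.00197). The mismatch repair genes Pms2 (-0.31, SE 0.10) and Msh3 (-0.24, SE 0.09) were lower too, but Pms2 did not pass without Hira_KD replicate 2 or either Ubn2_KD replicate (edgeR adjusted p between 0.0811 and 0.107) and Msh3 without any 1 of the 4 libraries (edgeR adjusted p between 0.0857 and 0.199). In excision repair, Apex1 (-0.49, SE 0.08), Ung (-0.40, SE 0.08) and Ercc2 (-0.50, SE 0.08) were lower after Hira depletion and Ercc5 (0.42, SE 0.09) was higher. Ercc6 (0.38, SE 0.10) was higher, but it did not pass without Ubn2_KD replicate 2 (0.24, edgeR adjusted p = 0.149). Pip4p1, which overlaps Apex1, was at -0.30 (edgeR adjusted p = 0.00625). Without Ubn2_KD replicate 2 the 4 higher genes became 2.

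Some genes that fell in both depletions did not pass the direct test, and for these the interval of the difference is the measure. For Blm the 95% interval of the log2 difference ran from -0.14 to 0.18, for Pms1 from -0.27 to 0.29 and for Mutyh from -0.36 to 0.22. That of Bard1 ran from -0.40 to -0.02, with an edgeR adjusted p of 0.0829. The interval of Rad51b was much wider, from -0.39 to 0.56. The Ku genes differed slightly, Xrcc5 at -0.22 (SE 0.07, edgeR adjusted p = 0.0268) and Xrcc6 at -0.23 (SE 0.08, edgeR adjusted p = 0.0313). Neither passed without Hira_KD replicate 1 or without either Ubn2_KD replicate, where the edgeR adjusted p lay between 0.0521 and 0.191.

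**Figure D4:**
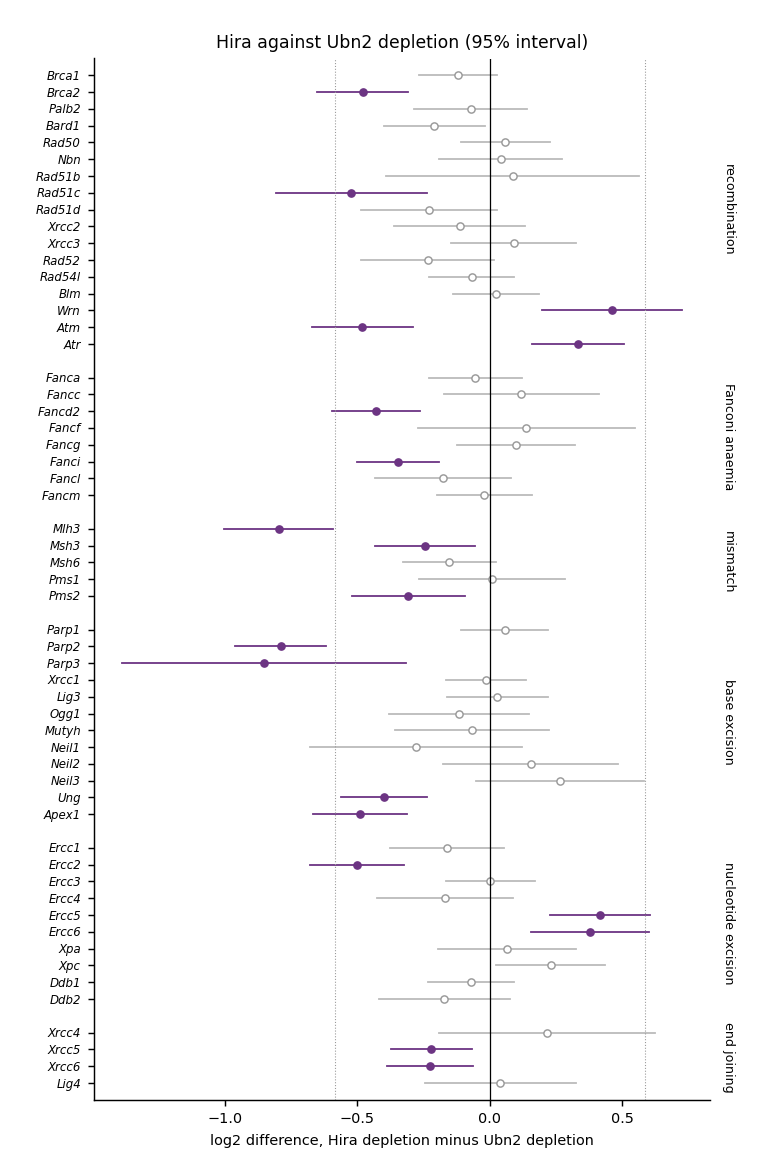
Log2 difference between Hira and Ubn2 depletion (horizontal axis, negative where the level was lower after Hira depletion) of the 56 DNA repair genes, with 95% intervals as lines. Filled points have an edgeR adjusted p under 0.05, 15 of them left of 0 and 4 right of it, and dotted lines mark 1.5-fold.

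Other lists of related genes were counted in the same fits. Of 74 further repair genes, which include polymerases, nucleases and the single-strand binding RPA genes, 31 fell and 6 rose after Hira depletion (41.9% and 8.11%, against 17.3% and 17.6% of all genes tested) with a median log2 fold change of -0.21. Their smallest adjusted p values belonged to Pold1 at -0.98 (edgeR adjusted p = 9.87e-09) and Pold2 at -0.77 (edgeR adjusted p = 2.79e-07), subunits of the replicative polymerase delta, and to Prkdc at -0.76 (edgeR adjusted p = 1.68e-06), the kinase that joins Ku at broken ends. Of 15 checkpoint genes 10 fell (66.7%) and 1 rose, with a median of -0.41 and with Hus1 at -1.11, Tipin at -0.82 and Chek2 at -0.95. The S phase list, of which 85.7% fell, had a median of -0.48, led by Dtl at -0.91, Cdc6 at -0.88 and Mcm6 at -0.76. The 20 genes of G2 and M phase had 9 falls (45.0%) and a median of -0.14.

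After Ubn2 depletion the S phase list had 10 falls and 3 rises among 35 (28.6% and 8.57%, against 19.1% and 20.0% of all genes tested), a median of -0.08 and sums of 7093 and 7081 CPM. The 74 further repair genes had 17 falls and 13 rises there (23.0% and 17.6%), with a median of -0.06. Checkpoint genes had 6 falls and 1 rise among 15 (40.0% and 6.67%) with a median of -0.14, and Chek2 was at -0.60 (edgeR adjusted p = 2.34e-05). Genes of G2 and M phase had 3 falls and 5 rises among 20 (15.0% and 25.0%) with a median of 0.01, and Ube2c, which marks mitotic proteins for destruction, was at 0.71 (edgeR adjusted p = 6.87e-08). After Ubn1 depletion 2 of the 74 fell (2.7%, against 3.62% of all genes tested), Rad54b at -0.32 (edgeR adjusted p = 0.048) and Polb at -0.41 (edgeR adjusted p = 0.0499), and no checkpoint, S phase or G2 and M phase gene passed, where the smallest edgeR adjusted p was 0.0853. In the direct comparison 25 of 35 S phase genes, 27 of 74 further repair genes and 8 of 15 checkpoint genes were lower after Hira than after Ubn2 depletion (71.4%, 36.5% and 53.3%, against 17.2% of all genes tested).

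The 24 targets of the p53 transcription factor, a list that shares Xpc, Ddb2 and Fancc with the 56, rose more often than they fell. The list had 12 rises and 2 falls after Hira depletion (50% and 8.33%, against 17.6% and 17.3% of all genes tested) with a median of 0.38. It had 14 rises and 1 fall after Ubn2 depletion (58.3% and 4.17%, against 20.0% and 19.1%) with a median of 0.36, and 4 rises after Ubn1 depletion (16.7%, against 4.14%). Perp, a membrane protein of p53-dependent cell death, was at 2.25 after Hira depletion, 0.69 after Ubn1 depletion and 1.96 after Ubn2 depletion. Cdkn1a, which encodes the cell cycle inhibitor p21, was at 1.24 after Ubn2 depletion.

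**Figure D5:**
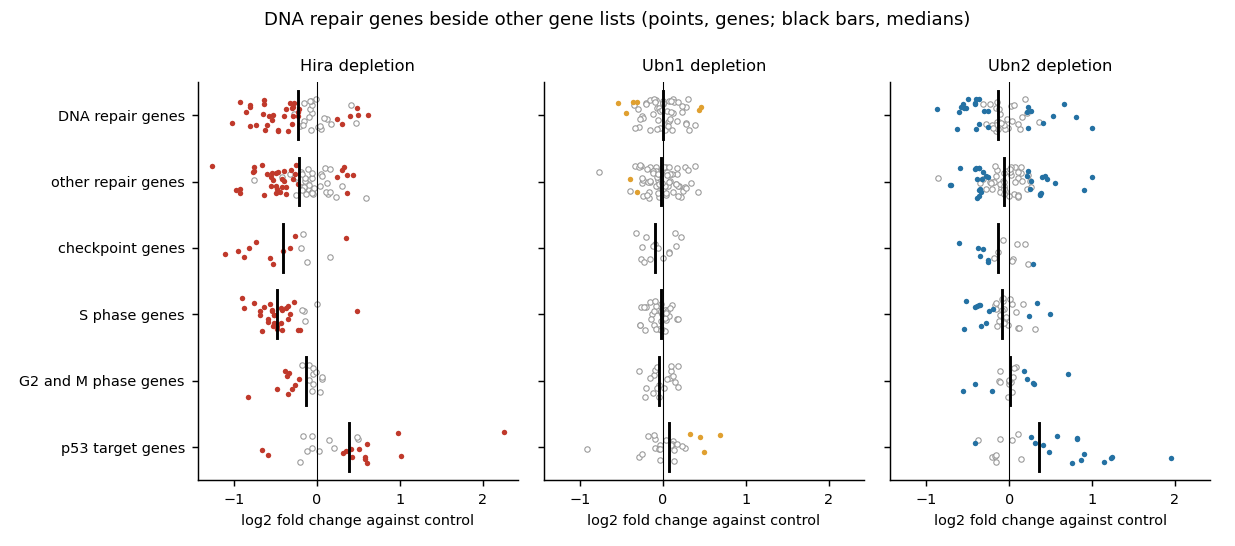
Log2 fold change against control (horizontal axis) after each depletion for the genes of 6 lists, with points as genes, filled where the edgeR adjusted p is under 0.05, and black bars as medians. After Hira depletion the medians of the DNA repair genes and of the S phase genes are -0.22 and -0.48, and that of the p53 targets is 0.38.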

How the data were processed

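RNA was sequenced from 8 libraries of mouse E14 ESCs, 2 per group. The deposited values are raw read counts per gene in 3 tables, 1 per depletion, each with the same 2 control libraries, whose values did not differ between tables (0 differences). According to the submitters' processing notes and the study's methods, the authors used Trim Galore for trimming, STAR for alignment to GRCm38 and featureCounts for counting. Versions, the strand setting and the treatment of reads with several matches are not given in the sources used here, so a gene that overlaps another or has a near-identical copy may hold reads of both.

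Each comparison was fitted on its own 4 libraries with edgeR 4.0.16 (R 4.3.3), with TMM scaling, the default filter on low counts and the quasi-likelihood test, and p-values were adjusted by Benjamini-Hochberg over all genes tested. SE is the log2 fold change divided by the root of the F statistic. CPM values used TMM-scaled library sizes, with 0.5 CPM added where logs were taken for the check of pairing. The code was tested on simulated data. Alternatives were the Wald test of DESeq2 1.42.0, its size factors in edgeR, other low-count filters (none, or at least 10 counts in every library), 1 fit over all 8 libraries, a block for the replicate number, and each library left out in turn. With 1 library of a group left out, the lone library is assumed to vary like the others. A median was taken as moved when it changed by more than the replicate SD of the 56 genes' median, 0.0196 on the log2 scale.

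The 56 genes and all companion and marker lists were chosen with earlier results of these data known, so their counts are descriptions. Genes given with all library values were the 16 past both thresholds in any comparison and, in each pathway, the gene with the smallest adjusted p in each depletion (21 in all). Others are named to account for a pathway, and companion genes by smallest adjusted p. Promoter windows came from RefSeq, exon overlaps from GENCODE. Total counts of 19710040 to 32706053 per library gave at least 53 counts for each of the 56 genes. Of the 16 checkpoint genes listed, Claspn was not matched.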

Additional observations from a re-analysis of the deposited data

Results flagged for a closer look

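Of the 56 DNA repair genes, 19 differed between Hira and Ubn2 depletion in the test of the difference itself (edgeR's quasi-likelihood test, Benjamini-Hochberg adjusted p under 0.05, 2 libraries a group), and their log2 differences, Hira minus Ubn2, were as follows. Lower after Hira depletion were Parp3 at -0.85, Mlh3 at -0.80, Parp2 at -0.79, Rad51c at -0.52, Ercc2 at -0.50, Apex1 at -0.49, Atm at -0.48 and Brca2 at -0.48. Smaller differences in the same direction were those of Fancd2 at -0.43, Ung at -0.40, Fanci at -0.35, Pms2 at -0.31, Msh3 at -0.24, Xrcc6 at -0.23 and Xrcc5 at -0.22. Higher after Hira depletion were Atr at 0.33, Ercc6 at 0.38, Ercc5 at 0.42 and Wrn at 0.46. The share of 33.9% lay near that of all genes tested, 35.8%.

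For Parp3 the Ubn2 libraries, at 4.50 and 6.93 CPM, lay far apart, and without Ubn2_KD replicate 2 its difference was -0.51 (edgeR adjusted p = 0.243). Apex1 overlaps Pip4p1 on the opposite strand over 61.7% of its exon bases, and Pip4p1 differed by -0.30 (edgeR adjusted p = 0.00625) in the same direction.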

How the results depend on the processing

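Among the 53 results of single genes given in full, 482 of 530 alternative values kept direction and side of the threshold, 48 kept direction but no longer passed, and 0 reversed. These genes were picked by their thresholds or smallest adjusted p in the same data, and only results that passed in the main fit were followed. The share that was kept is thus partly set by that choice. Weaker genes such as Fanca, Msh3 and Ercc1 are not among them. The counts of falls after Hira and Ubn2 depletion and in the direct comparison stayed within 1.5 times under every alternative. After Hira depletion the rises numbered 3 under DESeq2. Among the genes given in full, DESeq2 no longer passed Rad52 and Lig3 after Hira depletion or Rad51c after Ubn2 depletion. The same held for Atr, Fancg and Ercc4 after Ubn1 depletion and for Xrcc5 and Xrcc6 in the direct comparison. After Ubn1 depletion the rises numbered 0 under DESeq2, 1 with no filter on low counts and 4 with all 8 libraries in 1 fit. The median log2 fold change after Ubn2 depletion was -0.16 with no filter. The causes were not tested.

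With 1 library left out, the counts after Hira depletion ranged from 0 to 1 for called rises and from 3 to 5 for rises, and the median from -0.26 to -0.19. After Ubn1 depletion called falls ranged from 0 to 1, falls from 1 to 7 and rises from 0 to 3. After Ubn2 depletion called falls ranged from 2 to 5, rises from 4 to 7 and the median from -0.16 to -0.13. In the direct comparison called rises ranged from 0 to 1, rises from 2 to 5 and the median from -0.0975 to -0.0863.

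Replicate numbers in the labels were not used to pair the libraries in the main fit. Libraries of the same number correlated weakly in their deviations from the group means (r = 0.0978, 0.0499, -0.0381 and -0.0888). With 2 libraries a group, a weak correlation cannot show whether they were prepared in pairs. With the replicate block the falls after Ubn1 depletion numbered 7 and the rises 6, and the direct differences of Xrcc5 and Xrcc6 had adjusted p of 0.0627 and 0.0617. Among the genes given in full, no other call was lost with the block.

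The weakly expressed Parp3 had the widest error of the 56 genes. After Hira depletion the SE ran from 0.07 on the log2 scale for Ddb1 to 0.26 for Parp3.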
